A study of Mus musculus with 10 samples.

Results

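Transcript levels of 10 genes of glucose uptake and glycolysis were examined in mouse T-cell acute lymphoblastic leukemia (T-ALL), a cancer of immature T cells. The genes were Slc2a1, Slc2a3, Hk1, Hk2, Pfkl, Pfkp, Aldoa, Pkm, Ldha and Pdk1, chosen by symbol, and all 10 were present among the 20813 genes of the deposited table. Bulk RNA was measured in 10 leukemic spleens of C57BL/6 mice, 5 with the genotype label Sirt1 deleted (replicates 7, 8, 10, 11 and 12) and 5 labelled control (replicates 2 to 6). All leukemias carried a conditional Sirt1 allele and had been injected into the veins of recipients irradiated at a sub-lethal dose, controls included. The titles mark the first group as tamoxifen (TMX) and the second as vehicle (VEH), and the protocol gives tamoxifen at 3 mg per mouse in corn oil, into the peritoneum, or the oil alone. The treatment divides the spleens as the genotype label does, so effects of tamoxifen and of Sirt1 deletion cannot be told apart. The Cre driver, the age of the mice and the number of primary leukemias behind the transplants were not given in the sources used here. The p-values therefore measure the spread between these spleens, which may share a leukemia.

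Glycolysis turns glucose into pyruvate in the cytosol. SLC2A transporters bring glucose into the cell, hexokinases trap it by phosphorylation, phosphofructokinase commits it to the pathway, aldolase splits the sugar, and pyruvate kinase forms pyruvate and ATP. Lactate dehydrogenase then reduces pyruvate to lactate and restores NAD+, while pyruvate dehydrogenase kinases such as PDK1 switch off the enzyme complex that feeds pyruvate to mitochondria. Proliferating T cells and T-cell leukemias are known for running this pathway fast even in the presence of oxygen, and the transcription factors HIF1 and MYC are known activators of many of its genes.

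The 10 libraries had deposited totals of 33.7 to 34.5 M (mega) normalized counts. Sirt1, the NAD-dependent deacetylase gene named in the labels, measured 1735, 1803, 1796, 1909 and 1810 normalized counts in control replicates 2 to 6. It measured 1925, 1715, 1817, 1812 and 2097 in the labelled Sirt1-deleted replicates 7, 8, 10, 11 and 12. These values overlapped (log2 difference 0.05, SE 0.06, limma adjusted p = 0.568), so the gene's level did not separate the genotype labels. The deleted part of the gene was not given in the sources used here. T lineage markers summed to between 223101 and 231792 normalized counts in controls and between 201458 and 219013 in the labelled Sirt1-deleted spleens. Of these 16 markers, 2 rose, 4 fell and 10 did not pass, and none had a mean under 10. For this and the other marker lists, the shares over all tested genes were 36.1% called, 19.4% lower and 16.8% higher. Tcf7 alone went from 77942 to 58426 on average, and without it the other 15 markers summed to between 142734 and 153500 in controls and between 149569 and 157995 in the other group, with overlap. Neutrophil markers (13 of 14 rose, none with a mean under 10) summed to between 9166 and 12658 in controls and between 28974 and 99982 in the labelled Sirt1-deleted spleens. Macrophage and monocyte markers (12 of 16 rose, none with a mean under 10) summed to between 3615 and 4119 and between 7245 and 12965, respectively. Erythroid markers summed to between 43222 and 135184 in controls and between 39471 and 161271 in the other group, and B cell markers to between 481 and 943 and between 514 and 1066, with no marker of either list called by limma. Stromal and endothelial markers summed to between 5670 and 6603 in controls and between 4914 and 5408 in the other group. Of 6 tested markers 2 fell, and Pdgfra, Cdh5 and Tek had means under 10. Pecam1 and Pdgfrb, at control means of 3252 and 2170, made up most of the control mean sum of 6045. Pdgfrb (log2 difference -0.61) and Col1a2 (-0.54) fell, while Pecam1 (-0.04), Kdr (-0.16), Col1a1 (0.23) and Col3a1 (1.17) did not pass. The part of these other cells in the results on glycolysis was not tested, and in a bulk sample fewer cells of a type and less RNA per cell cannot be told apart.

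Start-site sequences are shown for the hexokinase pair, whose transcript levels moved in opposite directions, and for Ldha, whose level was the highest per length and did not pass the test. Windows of 300 bases, from 250 before to 50 after each start, were read from RefSeq on GRCm38.p6 and matched by symbol for 9 of the 10 genes, with 15 windows in all. Both strands were searched for ACGTG, a form of the core of the element that HIF1 binds, and for CACGTG. The latter is the E-box that MYC and its partners bind, and it contains ACGTG on each strand. Capitals mark both motifs, read as CACGT where ACGTG lies on the opposite strand. Each sequence is written 5′ to 3′ on the strand of its gene. Hk1 has a pair of windows, chr10:62379859-62380158 and chr10:62340372-62340671 on the minus strand. The Hk2 window is chr6:82774405-82774704 on the minus strand, and the Ldha window shown is chr7:46845554-46845853 on the plus strand. A further Ldha window, chr7:46846832-46847131, is not printed and held neither motif.
Hk1 upstream start: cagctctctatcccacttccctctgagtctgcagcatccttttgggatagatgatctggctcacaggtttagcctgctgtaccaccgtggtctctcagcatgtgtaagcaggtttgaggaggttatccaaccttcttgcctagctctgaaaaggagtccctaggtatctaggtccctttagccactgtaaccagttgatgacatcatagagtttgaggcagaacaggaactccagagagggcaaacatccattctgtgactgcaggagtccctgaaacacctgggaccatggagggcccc
Hk1 downstream start: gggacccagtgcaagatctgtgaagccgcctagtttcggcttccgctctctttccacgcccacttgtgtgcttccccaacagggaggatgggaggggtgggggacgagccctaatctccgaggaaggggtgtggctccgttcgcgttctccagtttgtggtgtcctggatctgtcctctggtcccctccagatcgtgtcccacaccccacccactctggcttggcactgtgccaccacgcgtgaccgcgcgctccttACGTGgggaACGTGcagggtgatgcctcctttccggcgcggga
Hk2: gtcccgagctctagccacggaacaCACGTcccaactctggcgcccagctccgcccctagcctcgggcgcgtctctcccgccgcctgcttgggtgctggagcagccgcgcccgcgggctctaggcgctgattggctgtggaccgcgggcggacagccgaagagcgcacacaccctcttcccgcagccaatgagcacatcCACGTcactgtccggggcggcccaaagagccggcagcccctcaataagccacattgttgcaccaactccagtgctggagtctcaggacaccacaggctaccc
Ldha: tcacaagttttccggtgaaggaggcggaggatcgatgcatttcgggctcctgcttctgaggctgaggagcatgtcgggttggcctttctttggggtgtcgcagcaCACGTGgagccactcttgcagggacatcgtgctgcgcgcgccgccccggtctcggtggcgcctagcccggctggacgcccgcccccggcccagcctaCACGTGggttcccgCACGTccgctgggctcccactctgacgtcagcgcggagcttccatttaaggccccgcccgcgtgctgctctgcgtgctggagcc
ACGTG occurred in 7 of the 15 windows, belonging to 6 genes, and in 19.6% of all 32851 windows in the table. A pair of these windows, both of Aldoa, overlap, so their matches are not separate sites. CACGTG occurred in 1 of the 15, the Ldha window shown, at 2 positions, and in 7.15% of all windows. The upstream Hk1 window and the windows of Pdk1, Pfkl and Pfkp held neither motif, while the downstream Hk1 window and the Hk2 window each held ACGTG at 2 positions. A match describes these letters only, and other forms of the HIF1 core, such as GCGTG, were not searched. Which start was used in these leukemias was not tested.

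Transcripts of most of these genes were lower in the labelled Sirt1-deleted spleens. Of the 10 genes, 7 fell (Pdk1, Slc2a3, Hk1, Pkm, Pfkl, Aldoa and Pfkp), 1 rose (Hk2) and 2 did not pass (Slc2a1 and Ldha), by limma on log2(normalized count + 1) with Benjamini-Hochberg adjustment over 15276 tested genes at 0.05. All 10 passed the filter on low values, a mean of at least 10 normalized counts over the spleens. Across all tested genes 36.1% were called, 19.4% as lower and 16.8% as higher. The median log2 difference of the 10 genes was -0.28, against -0.00014 for all tested genes. The groups did not overlap for 5 of the 10 genes, all lower, while 24% of tested genes showed no overlap and 12.9% were lower without overlap. The falls were modest, from 15.8% to 30.1% of the control mean.

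**Figure D1:**
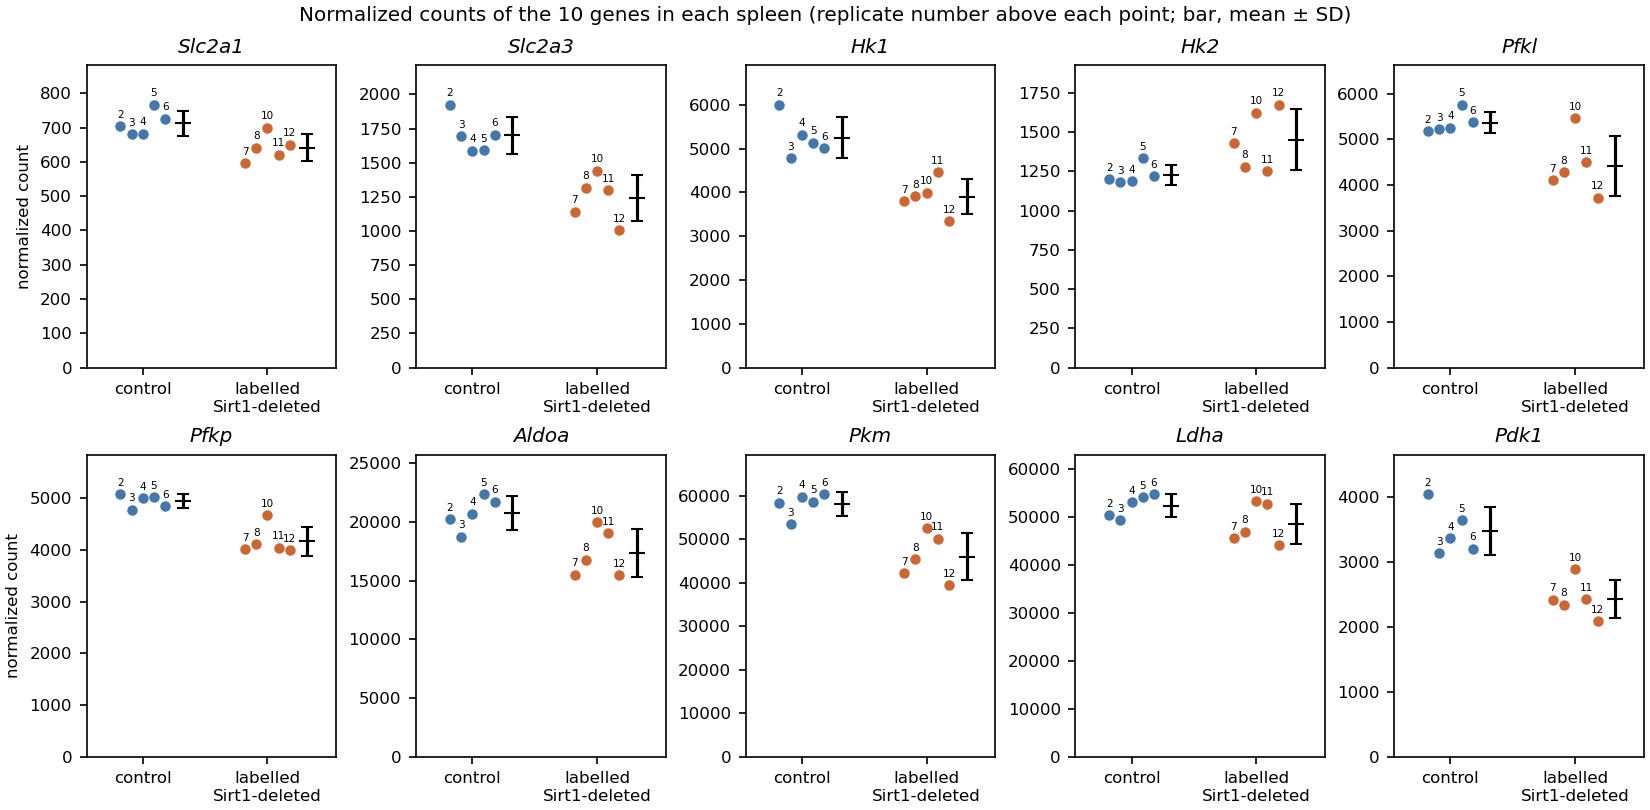
Normalized counts of the 10 genes (vertical axes, from 0) in 5 control (blue) and 5 labelled Sirt1-deleted (orange) spleens, each point a spleen with its replicate number, bars showing mean ± SD. Slc2a3, Hk1, Pfkp, Pkm and Pdk1 did not overlap between groups, and Hk2 was the gene with the higher mean in the labelled Sirt1-deleted spleens.

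Glucose uptake was represented by 2 transporters. Slc2a3 (chr6:122727809-122801640, minus strand, GRCm38) encodes GLUT3, a high-affinity glucose transporter of neurons and leukocytes. In control replicates 2 to 6 it measured 1925, 1693, 1589, 1594 and 1706 normalized counts, and in the labelled Sirt1-deleted replicates 7, 8, 10, 11 and 12 it measured 1142, 1317, 1442, 1299 and 1008. Every labelled Sirt1-deleted spleen lay below every control, with replicate 12 lowest. Slc2a3 fell by 27.0%, from 1702 ± 136 to 1242 ± 169 (means ± SD of 5 spleens a group; log2 difference -0.46, SE 0.09, limma adjusted p = 0.00302). Slc2a1 (chr4:119108711-119137983, plus strand) encodes GLUT1, the widely expressed transporter of growing cells. Its control values were 704, 681, 682, 767 and 726, and its values in the other group were 596, 642, 700, 621 and 650. Replicate 10 reached the control range and the other 4 lay below it. The log2 difference of Slc2a1 was -0.15 with a 95% interval from -0.29 to -0.01, and it did not pass after adjustment over all genes (limma adjusted p = 0.0922). Without labelled Sirt1-deleted replicate 10 it passed at -0.18 (limma adjusted p = 0.0442, range over the omission of each spleen 0.0442 to 0.204).

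The hexokinases, which phosphorylate glucose, moved apart. Hk1 (chr10:62268855-62379908, minus strand) encodes the broadly expressed isozyme that binds mitochondria. It measured 6007, 4778, 5323, 5139 and 5016 normalized counts in control replicates 2 to 6 and 3805, 3910, 3994, 4459 and 3345 in labelled Sirt1-deleted replicates 7, 8, 10, 11 and 12. The groups did not overlap. Hk1 fell by 25.7%, from 5253 ± 466 to 3903 ± 400 (means ± SD of 5 spleens a group; log2 difference -0.43, SE 0.08, limma adjusted p = 0.00188). Hk2 (chr6:82725025-82774454, minus strand) encodes the inducible isozyme of muscle, fat and many tumours. Its control values were 1201, 1181, 1186, 1335 and 1218, and those of the other group were 1429, 1280, 1625, 1254 and 1675. Replicates 7, 10 and 12 stood above all controls, while 8 and 11 lay within the control range. Hk2 rose from 1224 ± 63.4 to 1453 ± 193 (means ± SD of 5 spleens a group; log2 difference 0.24, SE 0.08, limma adjusted p = 0.0438). This Hk2 call was lost when 1 spleen was omitted in 7 of 10 cases (labelled Sirt1-deleted 7, 10 or 12, or control 2, 3, 4 or 6), with limma adjusted p from 0.0182 to 0.1005 over all 10. The Hk2 call was also lost in limma with sample weights (0.0596), limma without an intensity trend (0.0712), without a filter (0.0536), after rescaling to T lineage markers other than Tcf7 (0.1065) and in the exact rank-sum test (0.0823). At 5 spleens a group the rank-sum test called only genes whose groups did not overlap. Its losses, here and below, restate an overlap.

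Hk3, a hexokinase known from myeloid cells, was compared as a paralogue outside the 10 genes. It rose from 89.2 ± 14.0 to 305 ± 151 normalized counts (means ± SD of 5 spleens a group; log2 difference 1.65, SE 0.26, limma adjusted p = 8.97e-04). In labelled Sirt1-deleted replicates 8, 7, 12, 11 and 10 it measured 556, 320, 259, 211 and 177, and the neutrophil marker sums of the same spleens were 99982, 60145, 44848, 39752 and 28974, in the same order. The Hk2 values of those spleens were 1280, 1429, 1675, 1254 and 1625, which is another order. The part of neutrophils in either value was not tested.

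Phosphofructokinase is the committing enzyme, and its liver-type and platelet-type subunits are both found in many tissues. Pfkp (chr13:6579768-6648777, minus strand), the platelet type, measured 5086, 4783, 4998, 5029 and 4846 normalized counts in control replicates 2 to 6 and 4020, 4113, 4672, 4044 and 3993 in labelled Sirt1-deleted replicates 7, 8, 10, 11 and 12. All 5 lay below all controls, with replicate 10 closest to them. Pfkp fell by 15.8% (log2 difference -0.25, SE 0.05, limma adjusted p = 0.00323). Pfkl (chr10:77986947-78010083, minus strand), the liver type, measured 5187, 5231, 5258, 5760 and 5377 in controls and 4106, 4278, 5460, 4501 and 3724 in the other group. Replicate 10 lay inside the control range and the others below it. Pfkl fell by 17.7% (log2 difference -0.29, SE 0.08, limma adjusted p = 0.0170), a call lost in the exact rank-sum test (adjusted p = 0.184) and after rescaling to the summed T lineage markers (limma adjusted p = 0.0726) but not when Tcf7 was left out of that sum (limma adjusted p = 0.0140). The muscle-type subunit Pfkm, not among the 10, fell from 1484 ± 130 to 1225 ± 136 (means ± SD of 5 spleens a group; log2 difference -0.28, limma adjusted p = 0.0212), a call lost without control replicate 2 or labelled Sirt1-deleted replicate 8 or 12 (limma adjusted p of 0.0504 to 0.0574, over a range of 0.00815 to 0.0574). The Pfkm call was also lost in the exact rank-sum test (adjusted p = 0.0823) and after the rescaling (limma adjusted p = 0.133), but not without Tcf7 in the sum (limma adjusted p = 0.0252).

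Aldoa (chr7:126795234-126800751, minus strand) encodes the aldolase of muscle and most proliferating cells. It measured 20269, 18747, 20711, 22396 and 21748 normalized counts in control replicates 2 to 6 and 15518, 16806, 20006, 19066 and 15474 in labelled Sirt1-deleted replicates 7, 8, 10, 11 and 12. Replicates 10 and 11 lay inside the control range. Aldoa fell by 16.4% (log2 difference -0.26, SE 0.08, limma adjusted p = 0.0195). The call was lost without labelled Sirt1-deleted replicate 7 or control replicate 5 (limma adjusted p = 0.0517 and 0.0515, range 0.00449 to 0.0517), in the exact rank-sum test (adjusted p = 0.0823) and after rescaling to T lineage markers (limma adjusted p = 0.110), but not without Tcf7 in that sum (limma adjusted p = 0.0170).

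Pkm (chr9:59656368-59679375, plus strand) encodes the pyruvate kinases M1 and M2, which the gene-level values do not separate. It measured 58462, 53509, 59831, 58664 and 60439 normalized counts in control replicates 2 to 6 and 42238, 45369, 52530, 50176 and 39470 in labelled Sirt1-deleted replicates 7, 8, 10, 11 and 12. The groups did not overlap, and the closest values were those of labelled Sirt1-deleted replicate 10 and control replicate 3. Pkm fell from 58181 ± 2737 to 45957 ± 5414 (means ± SD of 5 spleens a group; log2 difference -0.35, SE 0.07, limma adjusted p = 0.00431).

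At the pyruvate branch point the lactate and mitochondrial arms were read by Ldha and Pdk1. Ldha (chr7:46841475-46855627, plus strand) encodes the lactate dehydrogenase subunit that favours lactate formation. Its control values were 50400, 49293, 53045, 54170 and 54830 normalized counts, and those of the labelled Sirt1-deleted replicates 7, 8, 10, 11 and 12 were 45567, 46975, 53259, 52774 and 44171. Replicates 10 and 11 lay inside the control range and the other 3 below it. The log2 difference of Ldha was -0.11 with a 95% interval from -0.24 to 0.02 (limma adjusted p = 0.170). Pdk1 (chr2:71873224-71903858, plus strand) encodes the kinase that inhibits pyruvate dehydrogenase. It measured 4043, 3127, 3366, 3637 and 3201 in control replicates 2 to 6 and 2418, 2338, 2888, 2423 and 2082 in the other group. Every labelled Sirt1-deleted spleen lay below every control. Pdk1 fell by 30.1%, from 3475 ± 373 to 2430 ± 291 (means ± SD of 5 spleens a group; log2 difference -0.52, SE 0.09, limma adjusted p = 0.00151), the largest fall among the 10 genes. Its log2 difference was lower than that of all but 5.26% of tested genes.

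**Figure D2:**
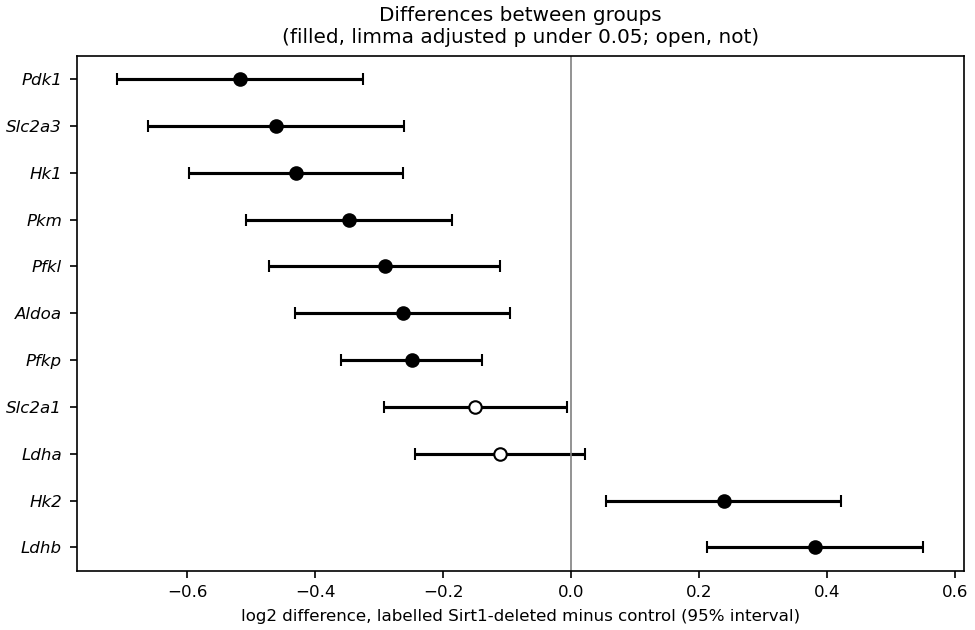
Log2 differences (horizontal axis, labelled Sirt1-deleted minus control, log2 of normalized count + 1) of the 10 genes and Ldhb with 95% limma intervals, filled where the adjusted p was under 0.05. Estimates run from -0.52 for Pdk1 to 0.24 for Hk2 among the 10 genes, and Ldhb lies at 0.38.

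The labelled Sirt1-deleted spleens differed in degree, and most of the 10 genes had the same spleens at the extremes. In its group replicate 12 ranked lowest for 8 of the 10 genes, and the exceptions were Slc2a1 and Hk2. Replicate 10 ranked highest for 8 of the 10, the exceptions being Hk1 and Hk2. Replicates 7, 8 and 12 lay below all controls for 9 genes each, replicate 11 for 7 and replicate 10 for 5. Of all 15276 tested genes, 33.3%, 33.1%, 37.6%, 29.1% and 28.0% lay below all controls in replicates 7, 8, 12, 11 and 10. Replicate 12 was thus at the top and replicate 10 at the bottom over all genes too, so this order is not particular to the 10. How often each replicate ranked lowest or highest over all genes was not counted. The median deviation of the 10 genes from the control mean was -0.47 in replicate 12, -0.40 in replicate 7, -0.31 in replicate 8, -0.22 in replicate 11 and -0.07 in replicate 10, on the log2 scale. Control medians ran from -0.07 to 0.06.

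**Figure D3:**
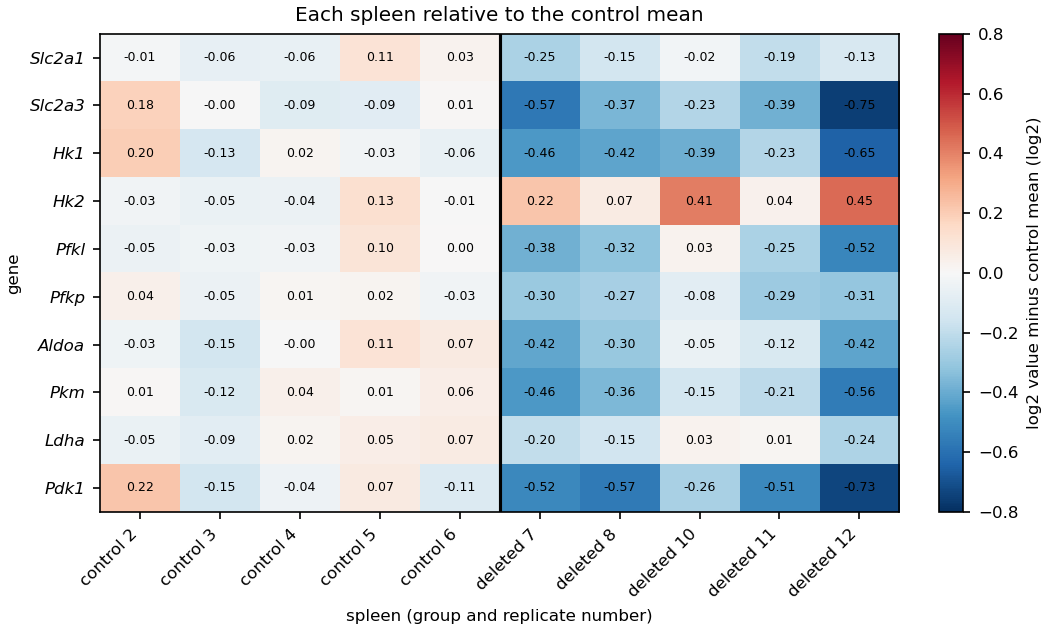
Deviation of each spleen (columns) from the control mean for each gene (rows), as log2 differences printed in the cells, blue for lower and red for higher. The deepest values are those of replicate 12, down to -0.75 for Slc2a3, and the Hk2 row is red where most other rows are blue.

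Levels per kilobase of the principal transcript, a rough scale for setting genes side by side, spanned a wide range. Which transcripts were used in these spleens was not tested. Whether the deposited values had been adjusted for length was not given in the sources used here. In controls Ldha was highest at 29642 ± 1361 normalized counts per kilobase, followed by Pkm at 23923 ± 1125 and Aldoa at 13749 ± 933 (SD, n = 5 each). Pfkl (1438 ± 62.5) and Hk1 (1364 ± 121) overlapped, with Pfkp at 1194 ± 30.9 below both. Pdk1 (670 ± 71.9) and Slc2a3 (430 ± 34.4) came next, and Hk2 (214 to 242) and Slc2a1 (209 to 235) overlapped at the bottom. In the labelled Sirt1-deleted spleens Hk2, between 227 and 304 per kilobase, no longer overlapped with Slc2a1, between 183 and 215. Ldha, Pkm and Aldoa together held 84.2% to 86.1% of the summed counts of the 10 genes in controls and 85.5% to 86.8% in the other group. Within the per-kilobase sum of the 10 genes, the share of Ldha was 39.7% to 41.3% in controls and 43.0% to 45.1% in the labelled Sirt1-deleted spleens, while the mean share of Pkm was 32.8% and 30.3%, and neither gene's shares overlapped between the groups. The 10 genes summed to 0.451% ± 0.0161 of a control library and 0.382% ± 0.0360 of a labelled Sirt1-deleted library (SD, n = 5 each).

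Ratios between paralogues within a library do not depend on how libraries are scaled, and 4 were compared by exact two-sided permutation tests with Benjamini-Hochberg adjustment over the 4. The smallest p such a test can give here is 0.00794. The hexokinase balance changed most. The Hk2 to Hk1 ratio was 0.200, 0.247, 0.223, 0.260 and 0.243 in control replicates 2 to 6 and 0.376, 0.327, 0.407, 0.281 and 0.501 in labelled Sirt1-deleted replicates 7, 8, 10, 11 and 12. It was higher in all 5 than in any control, with means of 0.235 ± 0.0234 and 0.378 ± 0.0835 (means ± SD of 5 spleens a group; log2 difference 0.67, exact permutation p = 0.00794, adjusted p = 0.0159).

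The transcript ratio of the glucose transporters was lower. The Slc2a3 to Slc2a1 ratio was 2.40 ± 0.240 in controls and 1.93 ± 0.225 in the labelled Sirt1-deleted spleens (means ± SD of 5 spleens a group; log2 difference -0.31, exact permutation p = 0.0159, adjusted p = 0.0212). Of the 5 labelled Sirt1-deleted spleens 4 lay below all controls, and replicate 11, at 2.09, lay above control replicate 5, at 2.08. The Pfkp to Pfkl ratio was 0.924 ± 0.0421 and 0.953 ± 0.0827 (means ± SD of 5 spleens a group; log2 difference 0.04, exact permutation p = 0.563, adjusted p = 0.563). No difference in this ratio was detectable at the spread of these spleens, and its sign turned without replicate 12, at -0.0015.

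The lactate dehydrogenase balance also differed. Ldhb, which encodes the subunit that favours pyruvate formation, is not among the 10 genes. It measured 1012, 864, 933, 1035 and 970 normalized counts in control replicates 2 to 6 and 1315, 1090, 1278, 1184 and 1416 in labelled Sirt1-deleted replicates 7, 8, 10, 11 and 12. Ldhb rose (log2 difference 0.38, SE 0.08, limma adjusted p = 0.00338) with no overlap. The Ldha to Ldhb ratio was between 49.8 and 57.1 in controls and between 31.2 and 44.6 in the other group (means 54.5 ± 3.27 and 39.0 ± 5.80, SD, n = 5 each; log2 difference -0.49, exact permutation p = 0.00794, adjusted p = 0.0159). The annotated gene Gm5514 matches 98.0% of 1002 bases of Ldhb and was listed at 134 ± 35.1 in controls and 124 ± 37.5 in the labelled Sirt1-deleted spleens (SD, n = 5 each), so reads may have been divided between them. Ldhb and Gm5514 summed differed by 0.33 on the log2 scale, and the sums did not overlap (1036 to 1174 against 1195 to 1556).

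**Figure D4:**
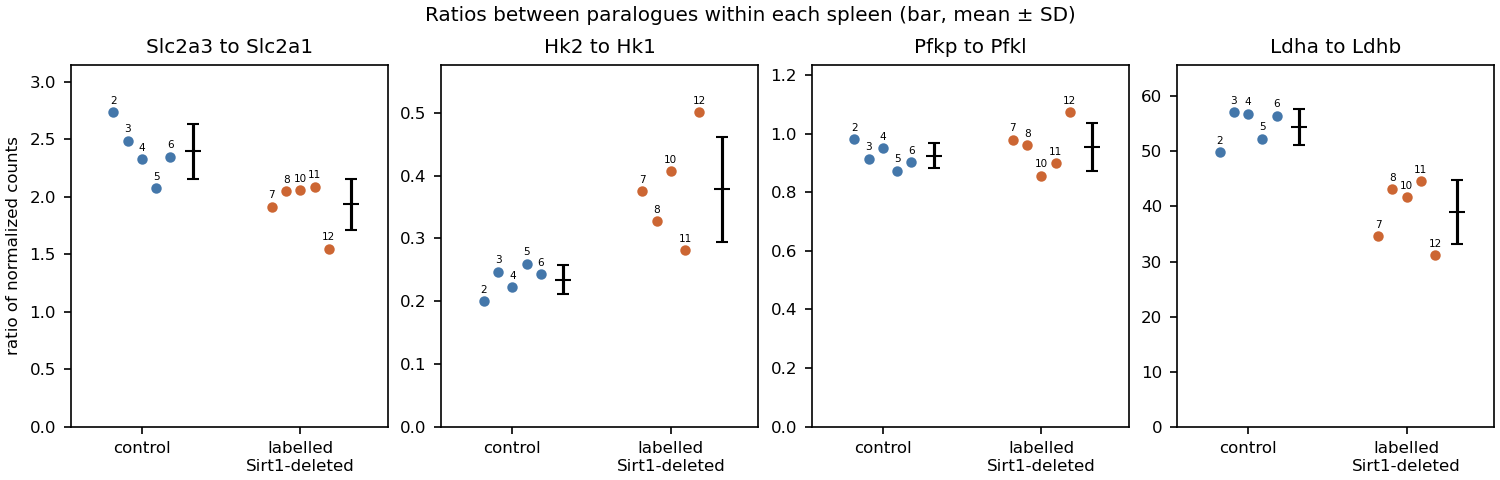
Ratios of normalized counts between paralogues (vertical axes, from 0) in each control (blue) and labelled Sirt1-deleted (orange) spleen with replicate numbers, bars showing mean ± SD. Hk2 to Hk1 lies higher and Ldha to Ldhb lower in all 5 labelled Sirt1-deleted spleens, whereas Pfkp to Pfkl overlaps.

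Counting could divide reads of other members among copies as well. Ldha, Pkm and Aldoa resemble other annotated genes, of any type, at 90% identity or more over 200 or more bases, and 7, 2 and 3 of these were in the table. Their values summed to 0.299%, 0.111% and 0.149% of the respective gene. With them added, the log2 differences were -0.11 for Ldha, -0.35 for Pkm and -0.26 for Aldoa, unchanged at this precision. Exons of Slc2a1, Pfkp and Aldoa overlap exons of a gene on the opposite strand, and Pkm overlaps Gm49759 on its own strand. The libraries were strand-specific, but whether the counting used the strand was not given in the sources used here.

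The remaining enzymes of glycolysis were compared from a fixed list of 18, of which 16 passed the filter. Of these, 5 fell, 2 rose and 9 did not pass, with a median log2 difference of -0.12. For this list and those that follow, the shares over all tested genes were 36.1% called, 19.4% lower and 16.8% higher. In this list the enolase genes Eno1 and Eno3, whose products form phosphoenolpyruvate, fell furthest. The enolase gene Eno2, with overlapping groups, did not pass (log2 difference -0.12, SE 0.37, limma adjusted p = 0.832). Eno1 went from 27740 ± 2142 to 18626 ± 2135 normalized counts (means ± SD of 5 spleens a group; log2 difference -0.58, SE 0.08, limma adjusted p = 5.78e-04) and Eno3 had a log2 difference of -0.50 (SE 0.07, limma adjusted p = 6.35e-04), both without overlap. Eno1 has 4 near-identical copies in the table, and the sum of gene and copies differed by -0.57. The genes that rose were Hk3 and Ldhb. Pfkm is among the 5 that fell. The paralogues Aldoc and Pklr did not pass, with log2 differences of 0.46 for Aldoc (limma adjusted p = 0.107) and -0.25 for Pklr (limma adjusted p = 0.319).

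Among the other sugar and lactate transporters 8 of 13 passed the filter, and 1 rose, 2 fell and 5 did not pass. Slc16a3, the lactate exporter MCT4, fell from 359 ± 48.2 to 247 ± 44.0 normalized counts (means ± SD of 5 spleens a group; log2 difference -0.54, limma adjusted p = 0.00849) without overlap. Slc16a7, which encodes the high-affinity monocarboxylate transporter MCT2, rose from a low level, to 32.5 ± 7.01 (SD, n = 5; log2 difference 1.40, limma adjusted p = 0.00314). Slc2a8, which encodes GLUT8, fell with a log2 difference of -0.36 (limma adjusted p = 0.0101), a call lost in the exact rank-sum test (adjusted p = 0.0512) and after rescaling to T lineage markers (limma adjusted p = 0.0567). Slc2a6 did not pass (log2 difference 0.44, limma adjusted p = 0.174).

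Regulators of glucose uptake and flux fell in 4 of 10 genes and rose in 0 by limma, with 5 lower and 0 higher at an unadjusted p under 0.05 and 2 lower and 0 higher by the exact rank-sum test. Pfkfb3, whose product makes the activator of phosphofructokinase, fell from 1158 ± 61.5 to 893 ± 91.6 normalized counts (means ± SD of 5 spleens a group; log2 difference -0.38, limma adjusted p = 0.00303), and its values did not overlap. Pfkfb2, a paralogue, had a log2 difference of -0.46 (limma adjusted p = 0.0295), a call lost without labelled Sirt1-deleted replicate 8 or 12 or control replicate 2, 4 or 5 (limma adjusted p of 0.0527 to 0.0761), in the exact rank-sum test (0.0823), in limma without a trend (0.0517) and after rescaling to T lineage markers (0.0731). Mlxip, a glucose-sensing transcription factor gene, had a log2 difference of -0.25 (limma adjusted p = 0.0410), a call lost without labelled Sirt1-deleted replicate 10, 11 or 12 or control replicate 2, 3 or 4 (limma adjusted p of 0.0741 to 0.0907). The Mlxip call was also lost in 8 of 13 other settings, among them the exact rank-sum test (adjusted p = 0.124) and limma with sample weights (0.136), quantile normalization (0.113) and upper-quartile rescaling (0.112).

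Genes of pyruvate entry into mitochondria went both ways, with 3 rising, 3 falling and 7 not passing of 13. Those that rose were Mpc2 (log2 difference 0.34, limma adjusted p = 0.0150), Pdp2 (0.20, limma adjusted p = 0.0183) and Mpc1 (0.16, limma adjusted p = 0.0269). Pdp2 and Mpc1 did not overlap between the groups. Pdpr, the regulatory subunit of pyruvate dehydrogenase phosphatase, fell from 906 ± 163 to 408 ± 115 normalized counts (means ± SD of 5 spleens a group; log2 difference -1.18, SE 0.19, limma adjusted p = 9.87e-04). Pdha1, the catalytic subunit that PDK1 phosphorylates, fell from 9901 ± 483 to 7753 ± 651 (means ± SD of 5 spleens a group; log2 difference -0.36, limma adjusted p = 0.00144), and the phosphatase gene Pdp1 had a log2 difference of -0.36 (limma adjusted p = 0.0101), a call lost after rescaling to T lineage markers (limma adjusted p = 0.0542). The paralogues of Pdk1 did not pass. Pdk3, the next most abundant, had a log2 difference of -0.12 (limma adjusted p = 0.265), Pdk2 of 0.11 (0.680) and Pdk4 of 0.44 (0.304).

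In the pentose phosphate pathway, which branches off after hexokinase, 3 of 8 genes fell, 1 rose and 4 did not pass. G6pdx, the dehydrogenase gene at the pathway's entry, was lower (log2 difference -0.40, limma adjusted p = 0.0177). The related dehydrogenase gene H6pd was lower too (-0.46, limma adjusted p = 0.00119). Taldo1, the transaldolase of the pathway's return arm, rose by 0.29 (limma adjusted p = 0.00159). Of 7 gluconeogenic genes 5 passed the filter and 1 was called. That gene, Pck2, the mitochondrial carboxykinase, rose by 0.36 on the log2 scale (limma adjusted p = 0.00906), and it shares a near-identical stretch with Sag. The Pck2 call was lost in the exact rank-sum test (adjusted p = 0.0512).

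Regulators of HIF1 and known hypoxia-induced genes were lower in 9 of 16 cases and higher in 1, with a median log2 difference of -0.23. Across all tested genes 19.4% were called lower and 16.8% higher. The list pools regulators with induced genes, and HIF1 activity was not tested. Egln3, a prolyl hydroxylase that marks HIF for degradation and is itself induced by it, fell from 4196 ± 114 to 2610 ± 492 normalized counts (means ± SD of 5 spleens a group; log2 difference -0.70, limma adjusted p = 6.35e-04). Ankrd37 had a log2 difference of -0.80 (limma adjusted p = 5.85e-04) and Ndrg1 of -0.74 (limma adjusted p = 0.00124), and none of these overlapped between the groups. The gene that rose was Higd1a (log2 difference 0.46, limma adjusted p = 0.00114), also without overlap. Also called lower were Hif1a (log2 difference -0.30, limma adjusted p = 0.0148), Arnt (-0.30, 0.00855), Egln2 (-0.20, 0.0172) and Hif1an (-0.16, 0.0191). Kdm3a (-0.64, limma adjusted p = 1.97e-04) and Bnip3 (-0.60, limma adjusted p = 0.049989) were lower too, Bnip3 just under the threshold. Hif1a and Bnip3 overlapped between the groups. Of those that did not pass, Vegfa (0.26) and Car9 (0.22) had positive differences, and Vhl, Egln1, P4ha1 and Bhlhe40 negative ones. After rescaling to T lineage markers, 4 genes of this list were lower and 1 higher, and with Tcf7 left out of that sum 11 were lower and 1 higher. Over all 7 lists together, 26 of 76 tested genes fell and 9 rose. After the same rescaling 12 fell and 13 rose, and with Tcf7 left out of the marker sum 29 fell and 7 rose. Over all tested genes the rescaling likewise gave fewer lower and more higher genes, and leaving Tcf7 out gave the reverse. These shifts are thus not particular to the lists, and the counts over all genes stand in the last section.

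**Figure D5:**
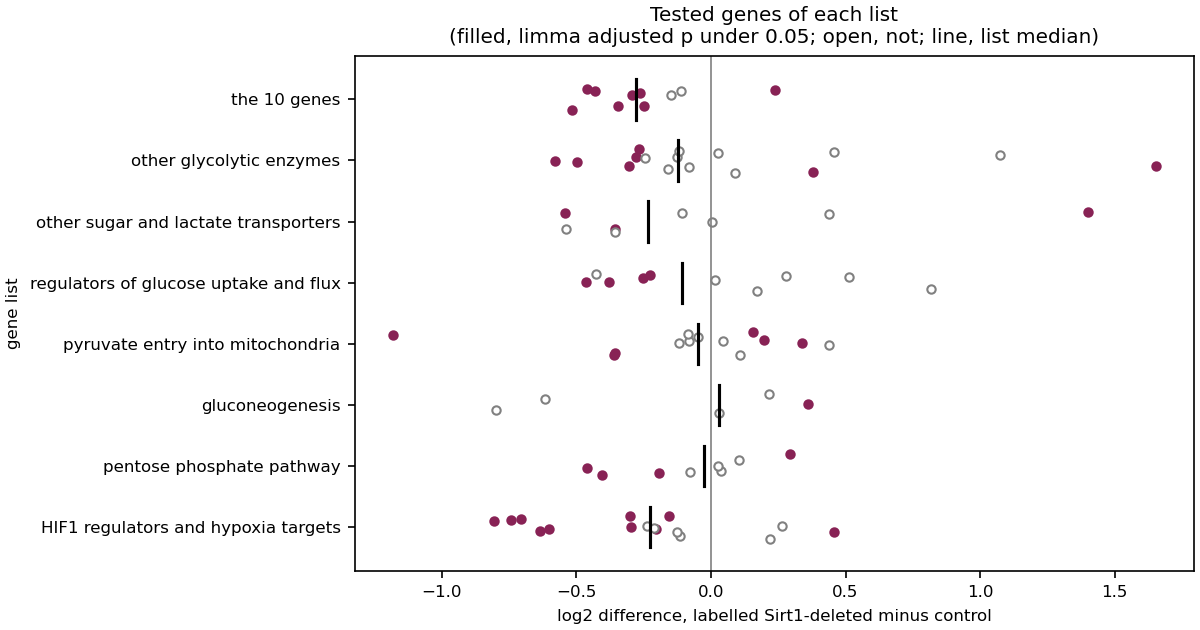
Log2 differences (horizontal axis, labelled Sirt1-deleted minus control) of every tested gene in the 10-gene set and 7 related lists (rows), filled where the limma adjusted p was under 0.05, with a line at each list's median. Medians run from -0.28 for the 10 genes to 0.03 for gluconeogenesis.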

How the data were processed

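RNA came from leukemic spleens after red blood cell lysis, and strand-specific libraries were sequenced, per the labels' protocols. The values the authors deposited are a normalized signal, counts per gene divided by DESeq factors as the table's name states. For the table the authors deposited, the submitters' processing notes name kallisto 0.44.0, DESeq and mm10, with no role or order. Annotation, gene filter and the step from transcripts to genes were not given in the sources used here. Low values were whole multiples of the commonest low value, within 0.1 reads, for 64.1% to 74.6% of values, so whole reads were not recovered, the read depth is unknown and no counting intervals were made. The table has 0 columns outside the 10 samples.

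Here, log2(value + 1) was fitted in limma 3.58.1 (R 4.3.3; group as the only term, intensity trend) for 15276 genes with a mean of at least 10, with Benjamini-Hochberg adjustment over all of them at 0.05. The fit was also run on simulated counts in which 200 genes were changed 2-fold or 1.5-fold. Far more genes were called in these data, so that run does not measure the error of the calls made here. Fold changes of low genes are understated on this scale. Ratios used exact permutation tests over 252 assignments. GENCODE M21 (GRCm38) gave transcript lengths and overlaps, and blastn 2.17.0 gave near-identical copies (at least 90% identity over 200 bases).

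The members and the gene lists were chosen with earlier results of these data known. The genes named are the 10 members, Sirt1, Ldhb, paralogues of members, and up to 3 called genes with the largest difference in each list. Eno2, Tcf7, Mpc1, Mpc2, Pdp2, Higd1a, Vegfa, Car9, Vhl, Egln1, P4ha1 and Bhlhe40 fall outside this rule and were named after their values were seen. The same holds for Pecam1, Pdgfrb, Col1a1, Col1a2, Col3a1, Kdr, Hif1a, Arnt, Egln2, Hif1an, Kdm3a and Bnip3. Alternatives were other pseudocounts, filters, scalings, limma settings, a rank-sum test and the omission of spleens.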

Additional observations from a re-analysis of the deposited data

Results flagged for a closer look

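In 32 sets of 5 spleens (the 10 genes, Ldhb, Sirt1 and 4 ratios in each group), 3 had an extreme value whose gap to its neighbour exceeded 0.71 of the range of its group. Chance flags about 1 set in 20, or 1.6 of 32. Control replicate 5 was the highest control for Hk2, at 1335 normalized counts against 1181 to 1218 in the other 4. Labelled Sirt1-deleted replicate 10 was the highest of its group for Pfkp, at 4672 normalized counts against 3993 to 4113. Control replicate 3 was the lowest control for Pkm, at 53509 normalized counts against 58462 to 60439.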

How the results depend on the processing

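No paired analysis was possible because the labels give no pairing of spleens between the groups. The directions of all 10 genes were the same under each of the 13 other settings and the 10 omissions of 1 spleen, and the calls of Slc2a3, Hk1, Pfkp, Pkm and Pdk1 held under all of them. The exact rank-sum test called 3659 of all tested genes (1691 higher, 1968 lower) and 5 of the 10 genes. These counts are those of genes without overlap between the groups, so the test is no separate check. Omission of 1 spleen gave 4207 to 6259 calls over all genes, 6 to 8 among the 10 genes and 31 to 39 over the related lists, Sirt1 differences of 0.00482 to 0.0774, and log2 ratio differences of 0.560 to 0.768 (Hk2 to Hk1), -0.362 to -0.234 (Slc2a3 to Slc2a1), -0.544 to -0.415 (Ldha to Ldhb) and -0.0015 to 0.0798 (Pfkp to Pfkl), the last turning its sign without labelled Sirt1-deleted replicate 12. Pdk2 turned to -0.15 under quantile normalization. Against 2562 higher and 2956 lower genes with the deposited scaling, upper-quartile rescaling gave 3162 and 2272, and rescaling to the T lineage marker sum, chosen after seeing the data, gave 3810 and 1563 and moved the median log2 difference of all genes to 0.10. Under the latter 6 of the 10 genes were called (5 lower, 1 higher). With Tcf7 left out of the marker sum, also chosen after seeing the data, 2151 genes were higher and 3286 lower, and 7 of the 10 genes were called, all lower. Leaving out labelled Sirt1-deleted replicates 10 and 11 together gave 6937 calls over all genes and 9 among the 10. These spleens were picked because earlier results placed them nearest the controls, so that fit supports nothing here. The causes of the other changes were not tested. Depth is unknown, so the precision of low genes such as Slc16a7 rests on the spread between spleens alone.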
